A study of Mus musculus with 16 samples.

Results

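This account follows 8 genes of the neuropeptide secretory pathway in mouse hypothalamus, a part of the brain that controls feeding. They are the satiety peptide precursors Pomc and Cartpt, the processing enzymes Pcsk1, Pcsk2 and Cpe, the convertase inhibitor Pcsk1n, and the granule proteins Vgf and Scg2. They were taken by gene symbol, and each matched 1 row of the 47069 genes in the deposited count table. The samples were 16 RNA-seq libraries from C57BL/6N mice, an inbred strain, made from total RNA of dissected hypothalamus. The 8 diets took 60% or 20% of energy from fat, and at each fat level 1%, 2.5%, 5% or 20% of energy from protein, with 2 libraries per diet. The rest of the energy, neither fat nor protein, rose as either of them fell. A difference by protein or fat therefore cannot be told apart from one by that rest. This gives 4 libraries at every protein level and 8 at every fat level. The study asked how graded dietary protein acts on hypothalamic gene expression at fixed fat contents. The animals' age and their time on the diets are not given in the sources used here, nor whether the 2 libraries of a diet are from different mice. The spread that the p-values rest on may therefore be technical.

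Neuropeptides are made as long precursors that are cut and trimmed in the regulated secretory pathway before release. Pomc, made by neurons of the arcuate nucleus and by the pituitary, is the precursor of the melanocortins, which reduce feeding through melanocortin receptors, and of beta-endorphin. Cartpt encodes CART, another peptide that reduces feeding and that is shared by Pomc neurons and several other hypothalamic cell groups. The convertases encoded by Pcsk1 and Pcsk2 cut precursors at pairs of basic residues, and carboxypeptidase E, encoded by Cpe, removes the basic residues left behind. Pcsk1n encodes proSAAS, an inhibitor of the Pcsk1 convertase. Vgf and Scg2 encode granule proteins of the granin family that are themselves cut into peptides.

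All 8 genes are given on build GRCm38 with GENCODE M21 coordinates. Pomc (ENSMUSG00000020660) lies on chromosome 12 from 3954951 to 3960642 on the plus strand. Cartpt (ENSMUSG00000021647) lies on chromosome 13 from 99898489 to 99901091 on the minus strand, and Pcsk1 (ENSMUSG00000021587) on the same chromosome from 75089826 to 75134861 on the plus strand. Pcsk2 (ENSMUSG00000027419) spans 143546156 to 143816285 of chromosome 2, where the antisense genes Pcsk2os1 and Pcsk2os2 overlap it. Cpe (ENSMUSG00000037852) spans 64592542 to 64693054 of chromosome 8 on the minus strand. Pcsk1n (ENSMUSG00000039278) spans 7919822 to 7924410 of chromosome X and overlaps the coding gene Eras on the other strand. Vgf (ENSMUSG00000037428) spans 137026392 to 137033351 of chromosome 5, and Scg2 (ENSMUSG00000050711) spans 79434669 to 79440120 of chromosome 1 on the minus strand. Whether the counting used strand is not given. The counts of Pcsk2 and Pcsk1n may therefore hold reads of the genes that overlap them, or lack reads that fell on both.

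RefSeq start sites on GRCm38.p6 were matched for 6 of the 8 genes, all but Cpe and Vgf, and the 250 bases upstream of each start were searched on both strands. The full cAMP response element, TGACGTCA, which binds factors of the CREB family, is present in 3 of them, Cartpt, Pcsk1 and Scg2, and in 1.55% of the 32851 upstream windows of all entries. It lies 112 to 105 bases upstream of the start in Cartpt, 78 to 71 in Pcsk1 and 68 to 61 in Scg2. The 30 bases around each match are shown on the gene's strand, with the element in capitals, because the 3 genes share it and their levels across the diets, given further on, differ:
Cartpt (chr13:99900777-99900806, minus strand): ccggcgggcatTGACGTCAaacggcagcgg
Pcsk1 (chr13:75089768-75089797, plus strand): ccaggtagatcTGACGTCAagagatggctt
Scg2 (chr1:79440076-79440105, minus strand): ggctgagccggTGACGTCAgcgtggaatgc
The Cartpt and Scg2 stretches fall inside exons of GENCODE M21, whose gene starts lie further out than those of RefSeq.

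Pomc, the gene with the widest range across the diets, holds 2 matches to the E box CANNTG, which is present in 66.2% of the windows, and none to the cAMP response element, to TGTTTAC (FOXO) or to TTCNNNGAA (STAT). Its whole upstream window is shown with the E boxes in capitals:
Pomc (chr12:3954695-3954944, plus strand): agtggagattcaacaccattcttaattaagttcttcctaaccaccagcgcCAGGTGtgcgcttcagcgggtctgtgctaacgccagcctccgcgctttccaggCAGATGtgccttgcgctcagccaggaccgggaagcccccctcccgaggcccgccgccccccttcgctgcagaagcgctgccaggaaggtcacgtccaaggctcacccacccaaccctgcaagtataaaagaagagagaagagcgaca
TGTTTAC occurs once in the Pcsk1 window and in 3.17% of all windows, and TTCNNNGAA once in the Scg2 window and in 7.02% of all windows. A single E box is present in each of Cartpt, Pcsk2, Pcsk1n and Scg2. These matches describe the letters of the windows and say nothing about binding in these samples.

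Each library held 17731242 to 18511818 counts, and 16646 genes passed the count filter, the 8 genes among them. Some libraries stood apart. Summed cortex and hippocampus markers were 460 CPM (counts scaled to the library total) in 20% fat with 1% protein replicate 2 and 859 CPM in 20% fat with 2.5% protein replicate 2, against 198 to 252 CPM at 5% and 20% protein. Thalamus markers summed to 560 to 881 CPM at 1% protein and 333 to 470 CPM at 20%, and 5 of 7 rose. In the comparison of 1% with 20% protein 8.26% of all genes tested rose and 6.01% fell. Choroid plexus markers summed to 52.4 to 263 CPM at 1% protein and 48.4 to 59.8 CPM at 20%. They were high in 60% fat with 1% protein replicate 1 (142 CPM) and in both libraries with raised cortex markers (263 and 220 CPM). Of the 7 tested only Ttr rose, 9.56-fold (edgeR adjusted p = 0.0297), and its call was lost without either library of 60% fat with 1% protein, 60% fat with 20% protein replicate 2 or either library of 20% fat with 20% protein (up to 0.11). The part of these markers in the results below was not tested. The mitochondrial share of counts was 1.54% to 1.78% for 1% protein with 60% fat, in replicates 1 and 2, and for 1% protein with 20% fat in replicate 1, against 2.19% to 3.20% elsewhere. Hypothalamic markers summed to 666 to 1082 CPM at 1% and 885 to 1022 CPM at 20% protein, so the labelled tissue was present throughout. Of these 10 markers Sim1 and Avp fell (edgeR adjusted p = 0.0427 and 0.0496), calls lost in 11 and 14 of 24 alternatives, and 8 did not pass. Of the neuronal markers, Tubb3 and Nefl are listed at 0 in every library, although the neuronal markers together summed to 4599 to 4907 CPM at 1% protein. A gene listed at 0 here need not be absent from the tissue. Diet codes in the labels begin alike for 1% and 2.5% protein and differently for 5% and 20%, so a comparison across that line cannot be told apart from the code start.

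Comparing 1% with 20% protein over both fat levels, 3 of the 8 genes fell and 3 rose at 1%, at an adjusted p under 0.05 in edgeR's quasi-likelihood test. Pomc, Cartpt and Pcsk1 were lower, and Pcsk2, Cpe and Pcsk1n were higher, while Vgf and Scg2 did not pass. Of all genes tested, 14.3% passed in this comparison, 6.01% lower and 8.26% higher; these were 2376 genes, and 5889 passed without the 2 libraries with raised cortex markers. In 4 of the 8 genes the 4 libraries at 1% did not overlap the 4 at 20%: Pomc and Pcsk1 lay wholly below, as did 6.35% of all genes tested, and Pcsk2 and Cpe wholly above, as did 7.4%.

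Pomc had the largest changes of the 8 genes. At 1% protein its level was 13.7 and 11.5 CPM in the libraries at 60% fat and 13.7 and 11.8 CPM at 20% fat. At 2.5% protein it was 35.5 and 29.7 CPM at 60% fat and 18.7 and 17.2 CPM at 20% fat. At 5% protein it was 34.4 and 40 CPM at 60% fat and 45.2 and 31.4 CPM at 20% fat, and at 20% protein 41.7 and 46.5 CPM against 58.4 and 43.2 CPM. All 4 libraries at 1% lay below every other library. Of all genes tested, 6.35%, 4.56% and 3.15% lay wholly below 20%, 5% and 2.5% protein, each taken alone. The share below every level at once was not counted. The Pomc libraries at 2.5% lay below all at 20%, as did 2.28% of the genes tested, but overlapped those at 5%. The means were 12.7 ± 1.2, 25.3 ± 8.77, 37.7 ± 6.12 and 47.5 ± 7.56 CPM from the lowest to the highest protein level (SD, n = 4 each).

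Pomc was 3.75-fold lower at 1% than at 20% protein, a log2 change of -1.91 ± 0.19 (SE, adjusted p = 2.67e-05, edgeR's quasi-likelihood test), which was the 12th lowest log2 change of 16646 genes. Raw counts behind these values ran from 204 to 1080 per library. Against 5% protein Pomc fell by 1.57 ± 0.19 on the log2 scale (edgeR adjusted p = 0.000524) and against 2.5% by 0.98 ± 0.19 (adjusted p = 0.015). The comparison of 1% with 2.5% lies within 1 diet code start. Its call was lost without 60% fat with 1% protein replicate 2 (edgeR adjusted p = 0.0644) and without 60% fat with 2.5% protein replicate 2 (0.0642). Among the higher levels, the log2 difference was -0.93 ± 0.18 for 2.5% versus 20% protein (edgeR adjusted p = 0.12) and -0.60 ± 0.18 for 2.5% versus 5% (0.634). For 5% versus 20%, again within 1 code start, it was -0.33 ± 0.18 (adjusted p = 1). The 2.5% versus 20% difference passed with DESeq2 (adjusted p = 0.000731), with edgeR's likelihood ratio test (0.00103) and with no count filter (0.0051). In order of level, 1% protein thus stood apart from each of the others, and neighbouring levels above it did not pass.

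The fall of Pomc was seen at both fat levels. At 60% fat its log2 change from 20% to 1% protein was -1.81 ± 0.19 (edgeR adjusted p = 0.000341), and at 20% fat it was -1.99 ± 0.19 (adjusted p = 0.000148). The difference between the fat levels was 0.19 ± 0.26 on the log2 scale (edgeR adjusted p = 0.85). At 2.5% protein the libraries split by fat: 35.5 and 29.7 CPM at 60% fat lay above 18.7 and 17.2 CPM at 20% fat. How many of all genes split in this way was not counted. In edgeR's quasi-likelihood test 820 genes had an unadjusted p under 0.05 for this contrast. That contrast, added after the values were seen, was 0.86 ± 0.18 on the log2 scale in the model of 8 diets, with an unadjusted p of 0.000313 and an adjusted p of 1 (edgeR's quasi-likelihood test). With no count filter its adjusted p was 0.00187. The fat difference in the 2.5% versus 20% comparison, 1.06 ± 0.25, had an adjusted p of 1 and, with no count filter, 0.0173 (edgeR). At 1%, 5% and 20% protein the fat contrast of Pomc lay between -0.20 and -0.02 on the log2 scale.

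Because the tissue is bulk hypothalamus, fewer Pomc cells and less Pomc RNA per cell cannot be told apart. Pomc is also made by pituitary corticotrophs, so pituitary markers were read beside it. The 10 markers summed to 2.36 to 8.9 CPM at 1% protein, 2.85 to 8.87 at 2.5%, 9.03 to 15.3 at 5% and 5.57 to 12.3 at 20%. None of the 7 markers tested passed for 1% versus 20% protein, and their median log2 change was -0.47. The prolactin gene Prl had a log2 change of -2.37 there (edgeR adjusted p = 0.0767). Without the 2 libraries with cortex markers Gh, Pax7 and Prl fell, without 20% fat with 1% protein replicate 2 Pax7 and Prl, without 20% fat with 2.5% protein replicate 2 Gh, and in edgeR's likelihood ratio test Prl. For 1% versus 5% protein Gh fell, with a log2 change of -3.39 ± 0.93 (edgeR adjusted p = 0.0443). That call was lost with DESeq2 (0.0781) and without any 60% fat library on 1% or 5% protein, 60% fat with 2.5% protein replicate 2, 60% fat with 20% protein replicate 1, 20% fat with 1% protein replicate 1 or either library of 20% fat with 5% protein (0.054 to 0.134). Tshb is listed at 0 in every library, as the neuronal markers Tubb3 and Nefl are, so a listed 0 need not mean absence. Gh, the growth hormone gene, had 5 to 19 reads at 1% protein and 17 to 141 at 20%. Tbx19, a corticotroph factor, had 10 to 15 reads at 1% and 14 to 21 at 20%. The part of pituitary RNA in the Pomc result was not tested. Of the 6 arcuate markers tested Npy and Agrp rose and 4 did not pass, with Kiss1 listed at 0 throughout. Their sum was 71.1 to 85.5 CPM at 20% protein and 116 to 179 CPM at 1%, but without Npy it was 61 ± 3.63 and 62.9 ± 5.29 CPM (SD, n = 4 each). Tac2 alone gave 35.8 and 37.8 CPM of these, so the sum says little about the other markers.

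**Figure D1:**
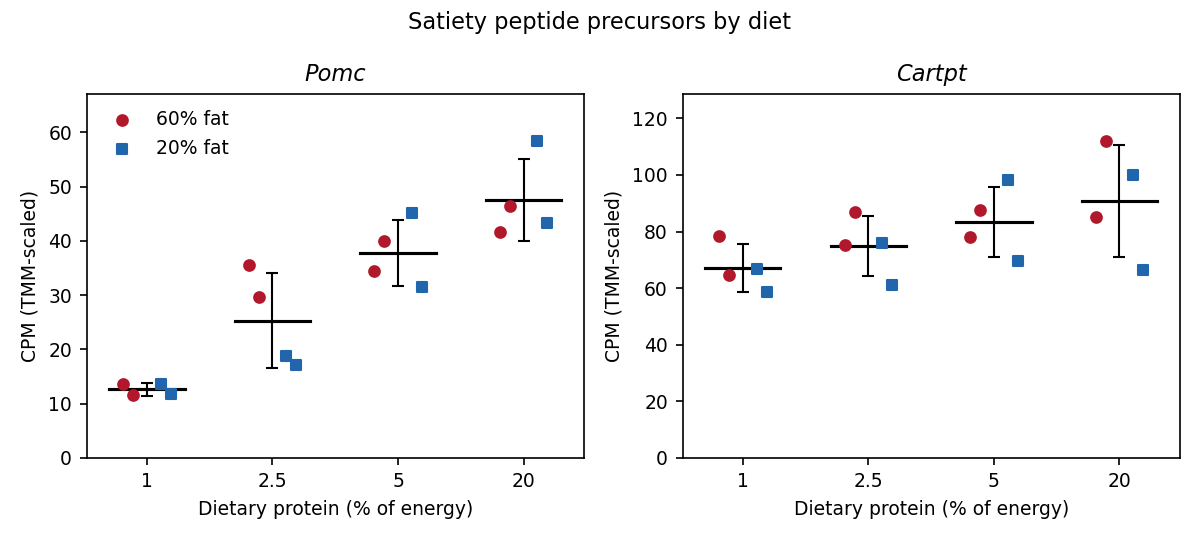
Levels of Pomc (left) and Cartpt (right) in CPM, scaled by TMM, in each of the 16 libraries by dietary protein, with 60% fat as circles and 20% fat as squares; bars show the mean ± SD of 4 libraries. Pomc lies between 11.5 and 13.7 CPM at 1% protein and between 41.7 and 58.4 CPM at 20%, whereas the Cartpt levels of these diets overlap.

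Cartpt fell less, and its libraries overlapped between protein levels. At 1% protein it was 78.5 and 64.6 CPM at 60% fat and 66.6 and 58.5 CPM at 20% fat, and at 20% protein 85.2 and 112 CPM against 100 and 66.3 CPM. The lowest library at 20% protein, 20% fat replicate 2, lay within the range of the libraries at 1%. At 2.5% protein the values ran from 61.1 to 86.9 CPM and at 5% from 69.6 to 98.2 CPM. Mean levels were 67 ± 8.38, 74.8 ± 10.6, 83.4 ± 12.3 and 90.9 ± 19.8 CPM from 1% to 20% protein (SD, n = 4 each). Cartpt was 1.35-fold lower at 1% than at 20%, a log2 change of -0.44 ± 0.14 (edgeR adjusted p = 0.041). It did not pass for 1% versus 5% (log2 change -0.32 ± 0.14, adjusted p = 0.178) or 1% versus 2.5% (-0.16 ± 0.14, adjusted p = 0.501, edgeR).

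The Cartpt call lay near the threshold and did not hold without several single libraries, some of them at protein levels outside the comparison. It was lost when 60% fat with 1% protein replicate 1 (edgeR adjusted p = 0.0528) or 2 (0.117), 60% fat with 2.5% protein replicate 1 (0.0521), or 60% fat with 5% protein replicate 2 (0.0524) was left out. The same held for 60% fat with 20% protein replicate 1 (0.051) and 2 (0.118), 20% fat with 1% protein replicate 1 (0.0773) and 20% fat with 20% protein replicate 1 (0.107). With only the libraries at 1% and 20% protein the log2 change was -0.45 (adjusted p = 0.0734). In all 24 alternatives it lay between -0.56 and -0.35.

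The processing genes moved by smaller amounts than Pomc and in opposite directions. Pcsk1, the convertase that makes the first cuts in Pomc, was 32.5 and 32.5 CPM at 60% fat and 32.3 and 36.1 CPM at 20% fat on 1% protein. On 20% protein it was 40.3 and 41.3 CPM at 60% fat and 42.9 and 42.9 CPM at 20% fat. No library at 1% reached the lowest library at 20%, 2.5% or 5% protein, where values started at 40.3, 36.9 and 36.2 CPM. How many of all genes lay below every other level in this way was not counted. Pcsk1 was 1.25-fold lower at 1% than at 20% protein, a log2 change of -0.33 ± 0.06 (edgeR adjusted p = 0.00374).

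Pcsk1 also fell against 5% protein, by 0.27 ± 0.06 on the log2 scale (edgeR adjusted p = 0.0216). That call was lost without either library of 60% fat with 1% protein (0.0504 and 0.0603), 60% fat with 5% protein replicate 2 (0.0695), 20% fat with 1% protein replicate 1 (0.0653) or 20% fat with 5% protein replicate 2 (0.0754). Against 2.5% protein the Pcsk1 log2 change was -0.22 ± 0.06 (edgeR adjusted p = 0.0773). It passed there with DESeq2 (0.0416), without the 2 libraries with cortex markers (0.00978) and without 20% fat with 1% protein replicate 2 alone (0.00791).

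Pcsk2, the convertase that cuts Pomc products further towards alpha-MSH and beta-endorphin, was higher at 1% protein. It was 264 and 292 CPM at 60% fat and 267 and 274 CPM at 20% fat on 1% protein, and 218, 214, 211 and 215 CPM in the 4 libraries on 20% protein. At 2.5% it ran from 231 to 255 CPM, between the other levels, and at 5% from 197 to 221 CPM. All 4 libraries at 1% lay above all others. Of all genes tested, 7.4%, 4.9% and 4.13% lay wholly above 20%, 5% and 2.5% protein, each taken alone. The share above every level at once was not counted. The Pcsk2 libraries at 2.5% lay above all at 5% and 20%, as did 1.22% and 1.6% of the genes tested. Pcsk2 was 1.28-fold higher at 1% than at 20% protein, a log2 change of 0.35 ± 0.05 (edgeR adjusted p = 0.000456), and higher than at 5% by 0.36 ± 0.05 (adjusted p = 0.00115).

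Against 2.5% protein the Pcsk2 log2 change was 0.16 ± 0.05 (edgeR adjusted p = 0.094). It passed there without 20% fat with 1% protein replicate 2 (0.046) and without both libraries with cortex markers (0.0302). Between 2.5% and 20% it was 0.20 ± 0.05 (adjusted p = 0.346), between 2.5% and 5% 0.21 ± 0.05 (0.487), and between 5% and 20% -0.009 ± 0.05 (1). Read by level, Pcsk2 thus had 246 ± 10.9 CPM at 2.5% protein between 274 ± 12.5 at 1% and 213 ± 11.4 and 215 ± 2.85 at 5% and 20% (SD, n = 4 each).

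The balance of the convertases can be read without library scaling from the ratio of their counts within a library, a measure chosen after the values were seen. Counts of Pcsk2 were 7.58 to 8.98 times those of Pcsk1 in the libraries at 1% protein, 5.68 to 6.73 times at 2.5%, 4.53 to 6 times at 5% and 4.92 to 5.41 times at 20%. The libraries at 1% lay above all others. The mean log2 ratio was higher by 0.68 at 1% than at 20% protein, 1.6-fold, and between 0.64 and 0.72 when any of these 8 libraries was left out. It is given as a description with no test, since Pcsk1 and Pcsk2 each separate these libraries already. The ratio holds the gene lengths as a constant, so it compares libraries and says nothing about which convertase RNA is the more abundant.

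**Figure D2:**
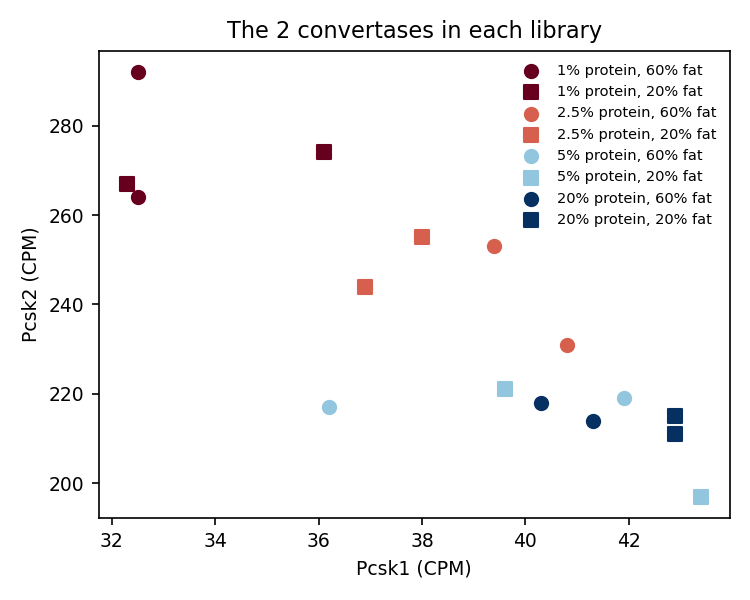
Pcsk2 (vertical axis) against Pcsk1 (horizontal axis), both in TMM-scaled CPM on axes that do not start at 0, with a point for each of the 16 libraries, coloured by protein level, and the marker shape giving the fat level. The 4 libraries at 1% protein lie at the upper left, with Pcsk1 at 32.3 to 36.1 CPM and Pcsk2 at 264 to 292 CPM.

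Cpe, the carboxypeptidase that trims the cut peptides, rose at 1% protein. It was 2773 and 2667 CPM at 60% fat and 2669 and 2598 CPM at 20% fat on 1% protein, and 2276 and 2252 CPM against 2229 and 2086 CPM on 20% protein. All libraries at 1% lay above all others, whose highest value was 2461 CPM in 60% fat with 2.5% protein replicate 2. How many of all genes lay above every other level in this way was not counted. Cpe was 1.21-fold higher at 1% than at 20% protein, a log2 change of 0.28 ± 0.04 (edgeR adjusted p = 0.000987). It was higher than at 5% by 0.21 ± 0.04 (adjusted p = 0.0131) and higher than at 2.5% by 0.19 ± 0.04 (0.0291, edgeR). The higher protein levels lay close together, at 2343 ± 85, 2316 ± 67.1 and 2211 ± 85.2 CPM from 2.5% to 20% (SD, n = 4 each).

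The Cpe call against 5% protein was lost without 60% fat with 5% protein replicate 2 (edgeR adjusted p = 0.0548), 20% fat with 1% protein replicate 1 (0.0544) or 20% fat with 5% protein replicate 2 (0.0529). Against 2.5% it was lost without any library of 60% fat, without 20% fat with 1% protein replicate 1, and without either library of 20% fat with 2.5% protein. Its log2 change was then 0.17 to 0.20, with an edgeR adjusted p from 0.0534 to 0.136.

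Pcsk1n, the inhibitor of the Pcsk1 convertase, was raised at 1% protein in 3 of the 4 libraries. Its level was 3010 and 2727 CPM at 60% fat and 2858 CPM in replicate 1 of 20% fat, but 2104 CPM in replicate 2 of 20% fat. The libraries on 20% protein had 2078 and 2156 CPM at 60% fat and 2357 and 1857 CPM at 20% fat. The 3 high libraries are those with the low mitochondrial share, and the other is a library with raised cortex markers; the part of either in the result was not tested. Means were 2675 ± 398 CPM at 1% protein and 2156 ± 182, 2158 ± 201 and 2112 ± 207 CPM at 2.5%, 5% and 20% (SD, n = 4 each). Pcsk1n was 1.26-fold higher at 1% than at 20%, a log2 change of 0.34 ± 0.10 (edgeR adjusted p = 0.0331).

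The Pcsk1n call was lost without 60% fat with 1% protein replicate 1 (edgeR adjusted p = 0.115) or 2 (0.0796), 60% fat with 5% protein replicate 2 (0.0511), or 60% fat with 20% protein replicate 1 (0.105) or 2 (0.081). It was also lost without 20% fat with 1% protein replicate 1 (0.14), without 20% fat with 20% protein replicate 2 (0.122), and with only the libraries at 1% and 20% protein (log2 change 0.32, adjusted p = 0.102). Without the 2 libraries with cortex markers the log2 change was 0.43 (adjusted p = 0.000809). For 1% versus 5% it was 0.31 ± 0.10 (adjusted p = 0.0781) and passed with DESeq2 (0.0393), the likelihood ratio test (0.0377), no count filter (0.0424), the replicate number as a block (0.0454) and without 20% fat with 1% protein replicate 2 (0.00382). For 1% versus 2.5% it was 0.31 ± 0.10 (adjusted p = 0.0935, edgeR) and passed without that same library (0.00325).

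**Figure D3:**
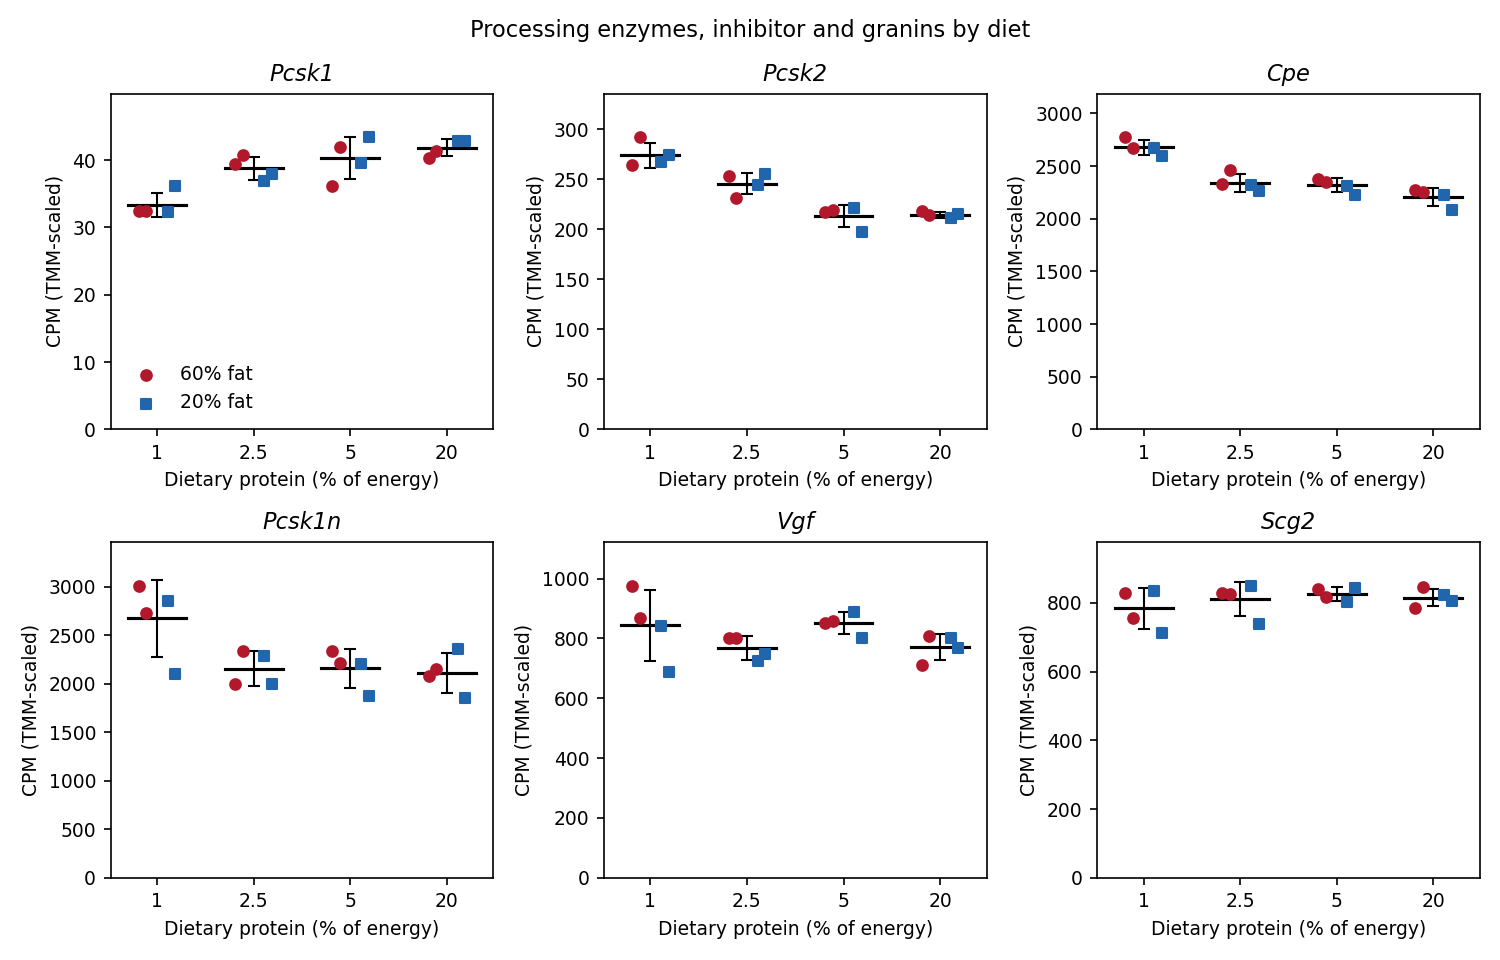
Levels of Pcsk1, Pcsk2, Cpe, Pcsk1n, Vgf and Scg2 in TMM-scaled CPM by dietary protein, with a point per library, circles for 60% fat and squares for 20% fat, and bars for the mean ± SD of 4 libraries; every vertical axis starts at 0. Pcsk1 is lowest at 1% protein, Pcsk2 and Cpe are highest there, and the 1% libraries of Pcsk1n spread from 2104 to 3010 CPM.

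The granule proteins Vgf and Scg2 did not pass between any of the protein levels. Vgf was 976 and 868 CPM at 60% fat and 842 and 688 CPM at 20% fat on 1% protein, and 710, 807, 800 and 769 CPM in the libraries on 20% protein. The highest and the lowest of all 16 libraries were thus both at 1% protein. Its log2 change for 1% versus 20% protein was 0.12 ± 0.08 (edgeR adjusted p = 0.269). It passed without 20% fat with 1% protein replicate 2 (log2 change 0.20, adjusted p = 0.0141), a library with raised cortex markers, and without both such libraries (0.20 ± 0.06, adjusted p = 0.0136). At 60% fat the Vgf log2 change was 0.28 ± 0.10 (adjusted p = 0.0875) and at 20% fat -0.04 ± 0.10 (0.906). The difference between these, 0.32 ± 0.14, had an edgeR adjusted p of 0.623.

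Scg2, whose product is the precursor of secretoneurin, varied least across the diets. It ran from 714 to 836 CPM at 1% protein, 739 to 850 at 2.5%, 804 to 844 at 5% and 786 to 846 at 20%, so every level overlapped every other. Its log2 change for 1% versus 20% protein was -0.06 ± 0.06 (edgeR adjusted p = 0.515), and it lay between -0.11 and -0.02 in the 24 alternatives, none of which passed. Of the 3 genes with the upstream cAMP response element shown above, Cartpt and Pcsk1 fell and Scg2 did not pass.

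In the comparison of 1% with 5% protein, Pomc and Pcsk1 fell and Pcsk2 and Cpe rose, 4 of the 8 genes, where 4.87% of all genes tested passed. Pomc and Pcsk1 lay wholly below and Pcsk2 and Cpe wholly above in the libraries at 1%, as did 4.56% and 4.9% of the genes tested. Against 2.5% protein, Pomc fell and Cpe rose, 2 of 8 where 2.32% of all genes passed, while the same 4 genes kept their libraries apart, against 3.15% below and 4.13% above among all genes tested. These comparisons share the libraries at 1% protein, so they are no independent repeats. Between 2.5% and 20%, 2.5% and 5%, and 5% and 20% protein no gene of the 8 passed. All genes together gave 1, 0 and 5 calls there (0.00601%, 0% and 0.03%) in edgeR's quasi-likelihood test. For 2.5% versus 5% protein, 717 genes had an unadjusted p under 0.05, and DESeq2 called 13 genes and edgeR's likelihood ratio test 15. In the test of any difference among the 4 protein levels, which 5.35% of all genes passed, Pomc (edgeR adjusted p = 0.000138), Pcsk2 (0.000933), Cpe (0.00521) and Pcsk1 (0.0191) passed. The call of Pcsk1 was lost without 60% fat with 1% protein replicate 1 (0.0673) or 2 (0.0772) or 20% fat with 1% protein replicate 1 (0.0807).

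**Figure D4:**
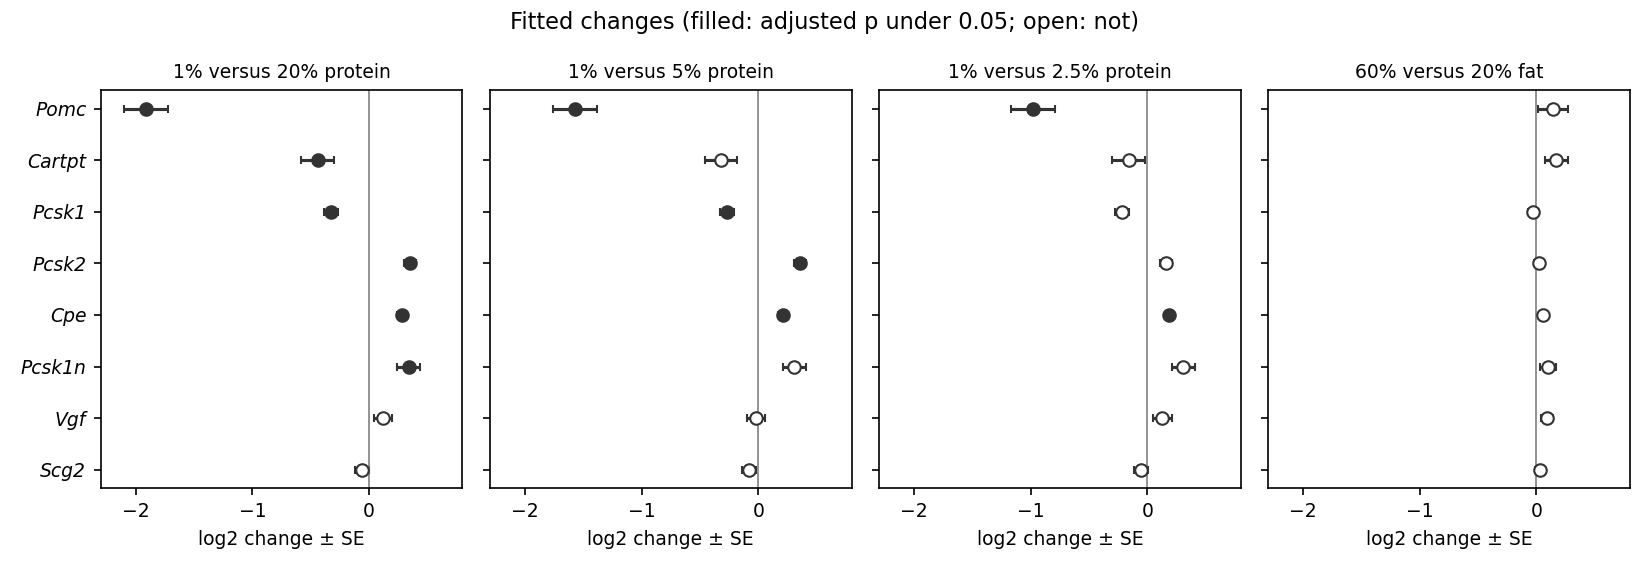
Fitted log2 changes ± SE of the 8 genes for 1% against 20%, 5% and 2.5% protein and for 60% against 20% fat, from edgeR's quasi-likelihood fits to 16 libraries; filled points have an adjusted p under 0.05. Pomc lies farthest from 0 in the protein comparisons, from -1.91 to -0.98, and no point is filled for fat.

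Along a straight line in protein percentage, the form given in the series' design text, none of the 8 genes passed, where 0.018% of all genes did. The Pomc slope, scaled to the step from 20% to 1%, was a log2 change of -1.26 ± 0.30 (edgeR adjusted p = 0.152), and the other slopes lay between -0.35 for Cartpt and 0.26 for Pcsk2. In edgeR's likelihood ratio test the Pomc slope passed (adjusted p = 0.0145). On the log2 of the protein percentage 7.88% of all genes tested passed, and 5 of the 8 genes did. These were Pomc (log2 change -1.81, adjusted p = 0.000818), Cartpt (-0.44, 0.0401), Pcsk1 (-0.30, 0.0125), Pcsk2 (0.36, 0.0042) and Cpe (0.25, 0.00685), in edgeR's quasi-likelihood test. When the start of the diet code was added to the model, the slope of Pomc was -0.52 (adjusted p = 0.983) and that of Pcsk2 0.0084 (0.995). That term splits 1% and 2.5% from 5% and 20% protein, so it takes up the step between these pairs, which cannot be told apart from the code start. The slope left rests mainly on 5% versus 20% protein, where the log2 difference was -0.33 for Pomc and -0.009 for Pcsk2.

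Dietary fat moved none of the 8 genes past the test. Fitted log2 changes for 60% versus 20% fat over 8 libraries each ran from -0.03 for Pcsk1 to 0.17 for Cartpt, with edgeR adjusted p from 0.634 to 0.856. Of all genes 1 passed, 0.00601%. Pomc averaged 31.6 ± 12.8 CPM at 60% fat and 30 ± 17.3 CPM at 20% fat, and Cartpt 83.5 ± 13.8 and 74.6 ± 16.1 CPM (SD, n = 8 each). Within each fat level, Pomc, Pcsk2 and Cpe passed for 1% versus 20% protein, 3 of 8 genes where 4.25% of all genes passed at 60% fat and 1.78% at 20% fat. At 60% fat the log2 changes were 0.36 for Pcsk2 (edgeR adjusted p = 0.0297) and 0.26 for Cpe (0.0482), and at 20% fat 0.34 (0.0362) and 0.29 (0.0497). Pcsk1 had -0.33 at each fat level, with edgeR adjusted p of 0.0522 at 60% fat and 0.0854 at 20% fat. At 60% fat it passed with DESeq2 (0.0337), the likelihood ratio test (0.028), no count filter or a mean of at least 1 CPM (0.0453 each), the replicate number as a block (0.0294) and without the 2 libraries with cortex markers (0.0194). It also passed there without either library of 20% fat with 1% protein (0.0175 and 0.0174) or with 5% protein (0.0396 and 0.0398). At 20% fat it passed without the 2 libraries with cortex markers (0.0427) and without replicate 2 of 20% fat with 1% protein (0.0388). Pcsk1n had 0.44 ± 0.14 at 60% fat (edgeR adjusted p = 0.0782) and 0.24 ± 0.14 at 20% fat (0.472). It passed in 7 of 23 alternatives at 60% fat and in 0 at 20% fat.

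Single libraries decided the calls of Pcsk2 and Cpe within a fat level, but not those of Pomc. At 60% fat, Pcsk2 was lost without any of the 60% fat libraries at 1%, 5% or 20% protein (edgeR adjusted p 0.0502 to 0.204). Cpe was lost there without any library of 60% fat or of 20% fat with 2.5% or 20% protein (0.0611 to 0.299), and with median-ratio scaling (0.0514). At 20% fat, Pcsk2 was lost without any 60% fat library at 2.5%, 5% or 20% protein, 20% fat with 1% protein replicate 1, or either library of 20% fat with 20% protein (0.0529 to 0.201). Cpe was lost there without any library of 60% fat, 20% fat with 1% protein replicate 1, 20% fat with 5% protein replicate 2, or any 20% fat library on 2.5% or 20% protein (0.0505 to 0.378). It was lost as well with the filter at a mean of 1 CPM (0.05). For the difference between fat levels in 1% versus 20% protein, none of the 8 genes passed. Over all genes 0 passed in edgeR's quasi-likelihood test, with 1305 at an unadjusted p under 0.05, 3 in its likelihood ratio test and 0 with DESeq2.

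**Figure D5:**
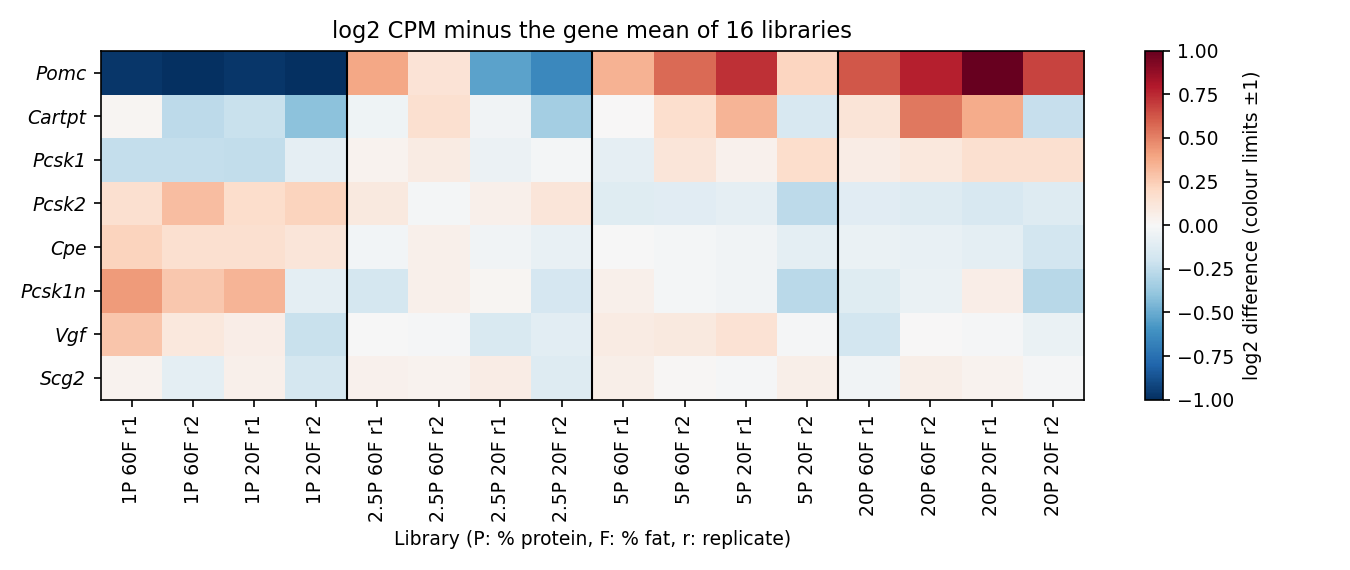
Log2 CPM of the 8 genes in each of the 16 libraries, as the difference from the gene's mean over all libraries; red is above and blue below, the colour scale ends at 1 and -1, and black lines separate the protein levels. Pomc is blue in all libraries at 1% protein and in both libraries of 20% fat with 2.5% protein.

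Across the 16 libraries the 8 genes fell into a loose order. The Pearson correlation of log2 CPM with Pomc was 0.843 for Pcsk1, 0.725 for Cartpt and 0.453 for Scg2, and -0.872 for Pcsk2, -0.781 for Cpe and -0.514 for Pcsk1n. Vgf had -0.019. Cpe and Pcsk1n had 0.83 with each other. These values describe 16 libraries that share diets, depth and library scaling. Among 13333 genes with a mean of at least 1 CPM, those most like Pomc were Ly6g6f (0.948), Rab7b (0.931), Ugt8a (0.927), Piga (0.924) and Olfml3 (0.920), and the most unlike were Arl4d (-0.920), Otulin (-0.905) and Elmsan1 (-0.904). For Cartpt the highest were Sox18 (0.857), Isyna1 (0.819), Sstr1 (0.814), Ttf2 (0.811) and Pnpla6 (0.799), and the lowest Mettl6 (-0.842), Otud7a (-0.837) and Prkd1 (-0.831). For Vgf the highest were Abcf1 (0.915), Slc38a10 (0.912), Map7d1 (0.911), Eif3b (0.909) and Mapk8ip1 (0.909), and the lowest Pdss1 (-0.916), Thoc7 (-0.915) and Guf1 (-0.914).

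The remaining genes of the pathway were read from lists, beside a median log2 change of 0.0035 over all genes for 1% versus 20% protein. Of all genes tested 14.3% passed there, 8.26% higher and 6.01% lower. That share ran from 5.52% to 33% when 1 library was left out, and was highest without 20% fat with 1% protein replicate 2. Of 16 other processing enzymes and chaperones 15 were tested, of which 2 rose, 1 fell and 12 did not pass, with a median log2 change of 0.04. Cpd, a carboxypeptidase that acts like Cpe earlier in the secretory pathway, fell by 0.33 ± 0.06 (edgeR adjusted p = 0.00194), from 106 ± 5.5 CPM at 20% to 84 ± 5.39 CPM at 1% protein (SD, n = 4 each). Scg5, which encodes the chaperone of the Pcsk2 convertase, rose with Pcsk2, by 0.18 ± 0.04 (adjusted p = 0.0163), from 247 ± 11.9 to 280 ± 6.6 CPM. Tpst2, which sulfates tyrosines of secreted proteins, rose by 0.24 ± 0.07 (adjusted p = 0.0422). Cpd passed in all 24 alternatives. With 1 library left out, 0 to 3 of the list rose, 3 without 20% fat with 1% protein replicate 2, and 1 fell. Scg5 was lost with only the libraries at 1% and 20% protein and without 60% fat with 1% protein replicate 2, 60% fat with 20% protein replicate 1, 20% fat with 1% protein replicate 1 or 20% fat with 20% protein replicate 2 (adjusted p up to 0.102). Tpst2 was lost without any library of 60% fat, without 20% fat with 1% protein replicate 1, 2.5% replicate 1, 5% replicate 2 or 20% replicate 2, with no count filter and with only the libraries at 1% and 20% protein (up to 0.163).

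Of 14 other granins and genes of dense-core granules 13 were tested, of which 2 rose, 1 fell and 10 did not pass, with a median log2 change of 0.06. The calcium sensor Syt7 (log2 change 0.26, edgeR adjusted p = 0.0296) and the vesicle GTPase Rab3a (0.24, 0.0338) rose, and Syt4, a synaptotagmin of dense-core vesicles, fell (-0.30, 0.0224). All were lost without 60% fat with 1% protein replicate 2, 60% fat with 20% protein replicate 1 or 20% fat with 20% protein replicate 2 (adjusted p up to 0.13). Syt4 and Rab3a were lost also without 60% fat with 1% protein replicate 1 or 20% fat with 1% protein replicate 1. Syt7 was lost also without 60% fat with 20% protein replicate 2 or 20% fat with 20% protein replicate 1. Rab3a was lost also without 60% fat with 2.5% protein replicate 1, either library of 60% fat with 5% protein, or 60% fat with 20% protein replicate 2. Leaving out 1 library gave 0 to 5 granule genes that rose and 0 to 4 that fell, most without 20% fat with 1% protein replicate 2. Without the 2 libraries with cortex markers 6 rose and 4 fell, where 34.8% of all genes tested passed. In that setting 3 rose and 1 fell of the processing enzymes, 1 rose and 2 fell of the genes downstream of Pomc, 2 rose and 6 fell of those acting on Pomc neurons, and 9 rose and 3 fell of the other precursors.

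Downstream of Pomc, 9 of 12 genes for the melanocortin antagonist, receptors and peptide breakdown were tested, of which 1 rose, 1 fell and 7 did not pass (median log2 change -0.01). Agrp, the antagonist of melanocortin receptors, rose by 0.59 ± 0.13 (edgeR adjusted p = 0.0103), from 4.62 to 6.94 CPM, and passed in all 24 alternatives. Oprm1, the mu opioid receptor to which beta-endorphin binds, fell by 0.51 ± 0.13 (adjusted p = 0.0206), from 39.2 to 27.7 CPM. Its call was lost without either library of 60% fat with 1% protein, 60% fat with 20% protein replicate 1, 20% fat with 1% protein replicate 1 or 20% fat with 20% protein replicate 2, and with only the libraries at 1% and 20% protein (up to 0.0734). With 1 library left out, 1 of the list rose and 0 to 2 fell, 2 without 20% fat with 1% protein replicate 2. Mc1r is listed at 0 in every library, which need not mean absence.

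Of 19 receptors, signalling genes and transcription factors that act on Pomc neurons, 2 rose, 4 fell and 13 did not pass, with a median log2 change of -0.02. Socs3, an inhibitor of leptin receptor signalling, fell by 0.79 ± 0.15 (edgeR adjusted p = 0.00311), and Ucp2, a mitochondrial carrier, rose by 0.39 ± 0.08 (0.00479). Both passed in all 24 alternatives. Foxo1, a factor that represses Pomc, rose by 0.34 ± 0.09 (adjusted p = 0.0238), and Isl1, a factor that activates it, fell by 0.37 ± 0.10 (0.0238). Foxo1 was lost without either library of 60% fat with 1% protein or 60% fat with 20% protein replicate 1, and with only the libraries at 1% and 20% protein (up to 0.0947). Isl1 was lost without 60% fat with 1% protein replicate 2, either library of 60% fat with 20% protein, or 20% fat with 20% protein replicate 2 (up to 0.0793). The other genes that fell were Nr3c1 and Stat3, whose calls were lost in 5 and 7 of 24 alternatives. When 1 library was left out, 1 to 2 of the list rose and 1 to 6 fell; 1 fell without 60% fat with 1% protein replicate 2 or 20% fat with 20% protein replicate 2, 2 without either library of 60% fat with 20% protein, and 6 without 20% fat with 1% protein replicate 2.

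Pomc was not the only precursor to change. Of 31 other neuropeptide precursors 30 were tested, of which 5 rose, 2 fell and 23 did not pass, with a median log2 change of 0.07. Among all genes tested 14.3% passed. Npy, a hunger peptide of Agrp neurons, rose from 17.3 to 80.3 CPM, a log2 change of 2.17 ± 0.20 (edgeR adjusted p = 1.1e-05), and passed in all 24 alternatives, as Agrp did. Sst, the somatostatin precursor, rose by 0.48 ± 0.11 (0.0134), and Nts, the neurotensin precursor, fell by 0.37 ± 0.10 (0.0303, edgeR). Sst was lost without 60% fat with 1% protein replicate 1, 60% fat with 20% protein replicate 1, 20% fat with 1% protein replicate 1 or 20% fat with 20% protein replicate 2, and with only the libraries at 1% and 20% protein (up to 0.0671). Nts was lost without any of these libraries, 60% fat with 1% protein replicate 2 or 60% fat with 20% protein replicate 2 (up to 0.0891). Leaving out 1 library, 2 to 9 of the list rose and 0 to 2 fell. The 9 came without 20% fat with 1% protein replicate 2, and 2 rose without 60% fat with 1% protein replicate 1, 60% fat with 20% protein replicate 1, 20% fat with 1% protein replicate 1 or 20% fat with 20% protein replicate 2. None of the genes in these lists passed for fat.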

How the data were processed

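RNA was sequenced from the hypothalamus of mice on 8 diets, with 2 libraries each. The authors deposited raw counts per gene with no normalisation, and the submitters' processing notes name build GRCm38 and the tools edgeR, featureCounts, FastQC, HISAT2 2.1.0, SAMtools 1.2 and Subread 5.0. The deposited gene length, which the authors' table gives beside the counts, equalled the whole genomic span, introns included, for 85.5% of the 46488 genes found in GENCODE M21, 4 of the 8 genes described among them. Counts may therefore hold intronic reads, and levels were not compared between genes.

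Genes were kept with filterByExpr (minimum count 10) and scaled with TMM factors. CPM are TMM-scaled, and a prior count of 2 was used for log2 CPM. The main test was the quasi-likelihood F test of edgeR (version 4.0.16, in R 4.3.3), fitted to all 16 libraries and adjusted by Benjamini-Hochberg over 16646 genes at 0.05. The models were protein as 4 levels with fat, 8 separate diets, and the linear model of the series' design text with its interaction kept at a p of at most 0.05. The steps were tested on simulated counts.

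The genes, pathway lists and marker lists were chosen with earlier results of these data known. The naming rule took all 8 genes, up to 4 passing genes per pathway list by smallest adjusted p, and the 5 most and 3 least correlated genes for Pomc, Cartpt and Vgf. Alternatives were DESeq2 1.42.0, median-ratio scaling within edgeR, the likelihood ratio test, a block for the replicate number, no count filter or a mean of at least 1 CPM, log2 protein, a term for the diet code, fewer libraries and leaving out each library. Fat contrasts within a protein level, the convertase ratio, list and marker counts under the alternatives and the arcuate sum without Npy were added after seeing the data. Upstream sequences are from RefSeq (GRCm38.p6).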

Additional observations from a re-analysis of the deposited data

Results flagged for a closer look

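Pcsk1 in 20% fat with 1% protein replicate 2 was 36.1 CPM, apart from the other 3 libraries at 1% protein, which had 32.3, 32.5 and 32.5 CPM. The gap to its nearest neighbour was 0.950 of the range of the 4 libraries. This was the only such library among 32 groups of 4 (8 genes at 4 protein levels), and chance flags about 1 in 20 groups. It is also a library with raised cortex and hippocampus markers, whose part in this value was not tested. Without that library and the other one with raised cortex markers, the Pcsk1 log2 change for 1% versus 20% protein was -0.37.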

How the results depend on the processing

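For 1% versus 20% protein, Pomc, Pcsk1 (log2 change -0.37 to -0.31), Pcsk2 (0.31 to 0.37) and Cpe (0.25 to 0.28) kept their direction and passed in all 24 alternatives. Leaving out 1 library gave -0.56 to -0.35 for Cartpt, 0.27 to 0.42 for Pcsk1n, 0.05 to 0.20 for Vgf and -0.11 to -0.02 for Scg2. With only the libraries at 1% and 20% protein, which leaves fewer samples, Cartpt (-0.45) and Pcsk1n (0.32) did not pass. Vgf passed without the libraries with cortex markers (0.20). The only reversal was Pcsk1n at 20% fat without 20% fat with 1% protein replicate 1 (-0.01), where leaving out 1 library gave -0.01 to 0.44.

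Numbers of genes called moved more. Without the 2 libraries with cortex markers they were 5889 for 1% versus 20% protein (main 2376), 4024 for 1% versus 5% (811), 4026 for 1% versus 2.5% (386), 50 for 2.5% versus 20% (1), 19 for 2.5% versus 5% (0) and 4248 for any level (891). They were then 1 for the slope (3), 2 for fat (1), and 2865 at 60% fat (707) and 927 at 20% fat (297) for 1% versus 20% protein. DESeq2 gave 92 for the slope, 809, 26 and 13 for 1% versus 2.5%, 2.5% versus 20% and 2.5% versus 5%, 1494 for any level, 0 for fat and 1513 at 60% fat. The likelihood ratio test gave 100, 789, 36, 15 and 1621 for the first of these, then 1880 at 60% fat, 546 at 20% fat and 3 for the difference between fat levels. No count filter gave 8 for the slope, 25 for 2.5% versus 20%, 12 for 2.5% versus 5%, 2131 and 560 at 60% and 20% fat and 1 for the difference. A mean of at least 1 CPM gave 0 for 2.5% versus 20% and 0 for fat. On log2 protein the slope called 1311 genes, and with the diet code term 0. Only the libraries at 1% and 20% protein gave 806.

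Leaving out 1 library gave 0 to 10 for the slope, 939 to 5616 for 1% versus 20%, 318 to 3798 for 1% versus 5%, 95 to 4265 for 1% versus 2.5%, 0 to 17 for 2.5% versus 20%, 0 to 4 for 2.5% versus 5%, 1 to 5 for 5% versus 20% and 326 to 3932 for any level. It gave 0 to 2 for fat, 16 to 2748 at 60% fat, 53 to 805 at 20% fat and 0 to 0 for the difference. The highest numbers for 1% against the other levels, for any level and within each fat level came without 20% fat with 1% protein replicate 2. At 60% fat, though, 2747 came without replicate 1 of that diet, next to 2748 without replicate 2. For 1% versus 20% the number moved by over 1.5 times also without 20% fat with 1% protein replicate 1 (939), 60% fat with 1% protein replicate 1 (1135) or 2 (978), 60% fat with 20% protein replicate 1 (1083) or 2 (1355) and 20% fat with 20% protein replicate 2 (961). The cause was not tested.

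With the replicate number as a block, 2786 genes were called for 1% versus 20% protein and no call of the 8 genes changed there. The block gave 7 for 2.5% versus 20%, 2 for fat and 1858 at 60% fat. At 60% fat Pcsk1 (adjusted p = 0.0294) and Pcsk1n (0.0409) then passed in edgeR's quasi-likelihood test, as did Pcsk1n for any level (0.0499). The difference between replicates 1 and 2 was compared between diets by its correlation across genes. The correlation ran from -0.17 to 0.34 over 28 pairs of diets, with only 7 over 0.1. These values do not settle whether the numbers pair the samples. Depth was even, and 4 libraries per protein level limit what can be called.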
